A study of Mus musculus with 2 samples.

Results

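The S100 family was followed through the cells of 2 mouse lungs. It was taken as 8 genes by symbol, S100a1, S100a4, S100a6, S100a8, S100a9, S100a10, S100a11 and S100a13, and all 8 were found among the 27998 genes listed. Another 9 S100 genes with UMIs were not members. The material was a whole-lung cell suspension from male C57Bl/6J mice aged 3 months, digested with dispase and DNase I and captured in droplets for 3' single-cell RNA sequencing (10x Genomics, V2 chemistry). The labels call 1 mouse control and the other fibrosis. Their shared protocol states that 100 µg of TiO2 (titanium dioxide, a particle) or crocidolite asbestos (a fibre that scars the lung) was given into the trachea and that lungs were taken 14 days later, without saying which mouse received which. No other allele or treatment is named. Each group is therefore 1 library from 1 mouse, no difference between them has a replicate check, and the groups could not be tested against each other. All intervals are 95% intervals that cover counting error only.

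S100 proteins are small calcium-binding proteins of the EF-hand type that act mostly as dimers. Inside the cell they bind partners such as annexins and myosin. Some are released: S100a8 and S100a9 form calprotectin, the abundant cytosolic complex of neutrophils, and signal through Tlr4 and the receptor encoded by Ager. In injured lung the family is best known from neutrophils and monocytes and from S100a4, also called fibroblast-specific protein.

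The control library held 8280 cells and the fibrosis library 7173, with medians of 3783.5 and 4292 UMIs (unique molecular identifiers, each standing for 1 captured transcript) per cell. The libraries shared 89 barcodes. After filtering, 7494 and 6547 cells remained, and 12331 of the 14041 (87.8%) passed a gate for 1 cell class, set from marker genes that hold no S100 gene. Own markers were among the 10 leading genes of every class described here, which gating on those markers largely fixed. Levels are given as CPM, the UMIs of a gene per 1000000 UMIs of the class. Ratios between the libraries were formed in the 15 classes with at least 50 cells in each library, while alveolar type 1 (AT1) cells, fibroblasts and mesothelial cells had 20 to 49 and are given by level. In gated numbers, neutrophils went from 647 control to 72 fibrosis cells and classical monocytes from 1152 to 225. Alveolar type 2 (AT2) cells went from 991 to 1704 and alveolar macrophages from 680 to 974. These numbers come from 1 suspension each.

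Over all kept cells the 8 genes together took 2.12% of the UMIs of the control library and 0.681% of those of the fibrosis library. S100a8 and S100a9 alone took 1.57% and 0.327%. Over the whole suspension S100a9 stood at 6736 CPM in control and 1305 in fibrosis, a log2 ratio of -2.37. S100a8 was at 9003 and 1964 CPM (log2 -2.20) and S100a4 at 792 and 199 CPM (log2 -1.99). S100a6 was at 1933 and 1078 CPM, S100a11 at 1678 and 1212, and S100a10 at 644 and 517. S100a1 went the other way, from 173 to 287 CPM (log2 0.73). S100a13 was level at 241 and 249 CPM. In these totals the number of cells of a class and the RNA per cell are mixed, and the values within classes below separate them.

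**Figure D1:**
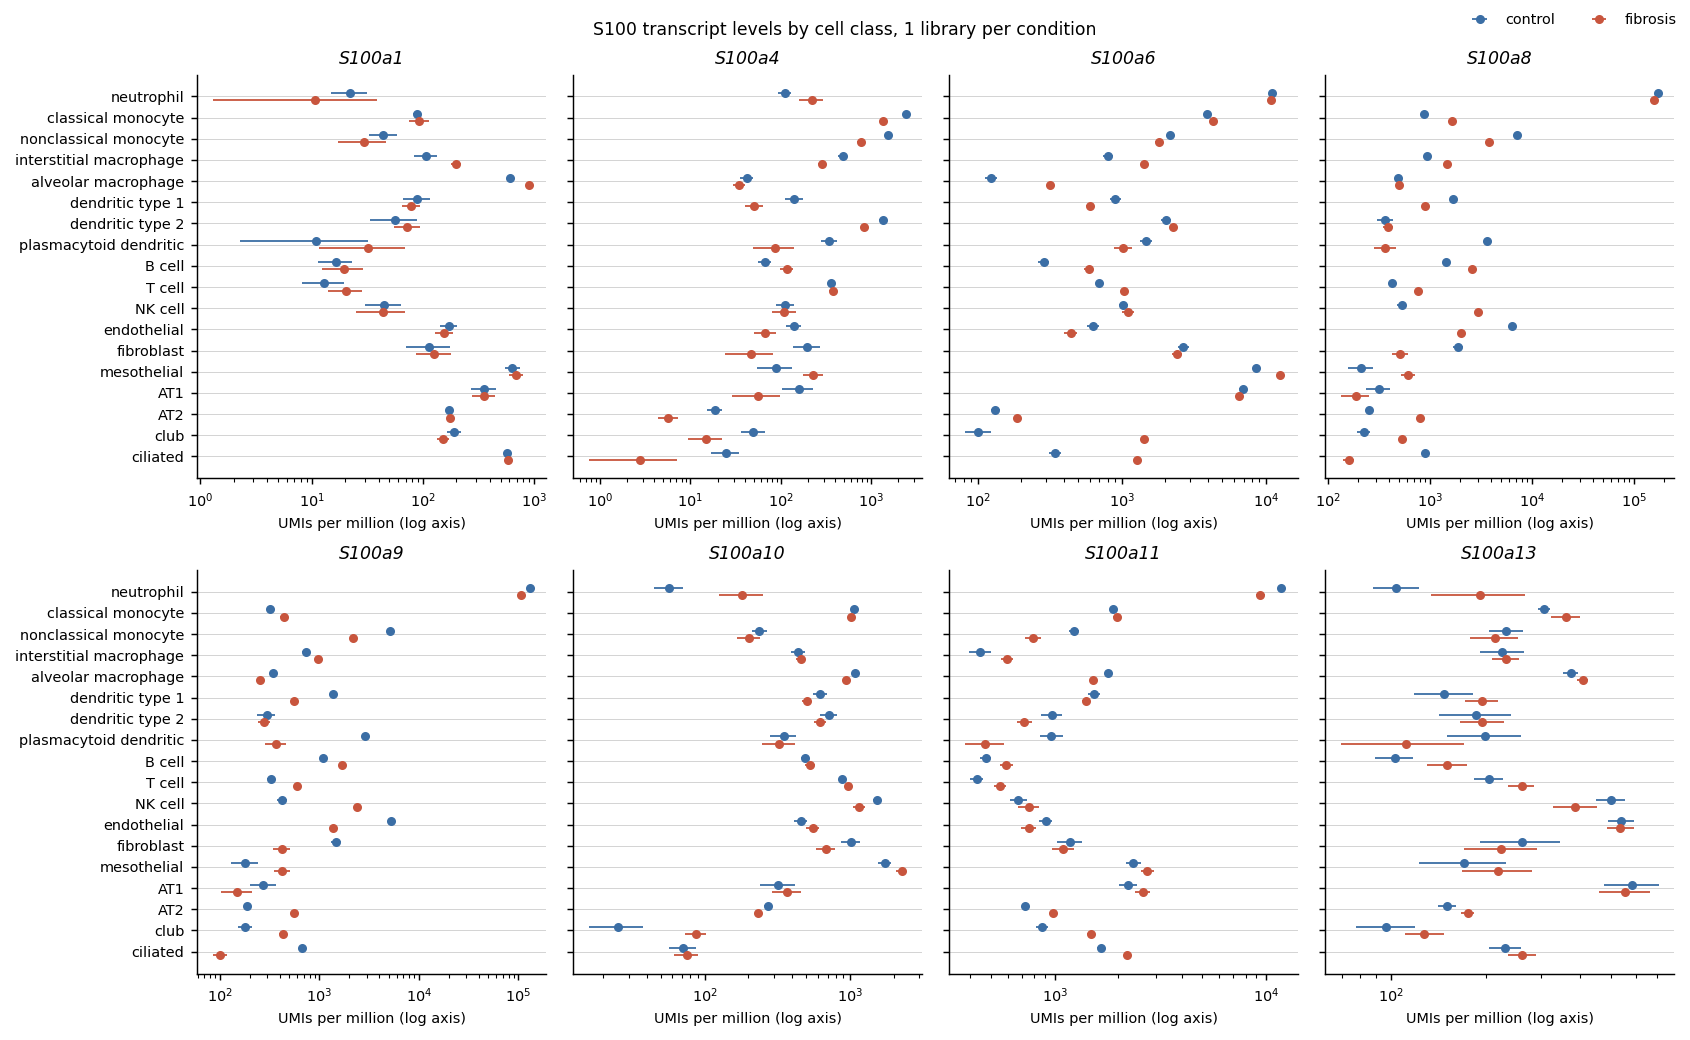
CPM on a log axis for the 8 S100 genes in 18 gated cell classes, with 1 point per library (blue control, red fibrosis) and bars for exact Poisson 95% intervals. S100a8 stands at 174804 and 158143 in neutrophils, and S100a4 is highest in classical monocytes in both libraries, at 2421 and 1350.

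A gene was counted as different where its level differed at least 2-fold between the libraries and it had at least 20 UMIs over both. Of 119 member and class pairs that could be counted, 12 were higher and 15 lower in fibrosis, and 14 of these 27 concerned S100a8 or S100a9. In AT2 cells S100a8 and S100a9 counted as higher and S100a4 as lower, where 3.68% of all genes counted as higher and 1.21% as lower. In club cells 4 members were higher (S100a6, S100a8, S100a9, S100a10) against 11.0% of genes, and S100a4 was lower against 1.75%. Ciliated cells had 1 higher (S100a6) against 3.9% and 3 lower (S100a4, S100a8, S100a9) against 1.65%. Endothelial cells had none higher against 4.06% and 3 lower (S100a4, S100a8, S100a9) against 3.96%. Plasmacytoid dendritic cells had none higher against 3.36% and 4 lower (S100a4, S100a8, S100a9, S100a11) against 4.97%. Type 1 dendritic cells had none higher against 4.25% and 2 lower (S100a4, S100a9) against 3.0%. NK cells had 2 higher (S100a8, S100a9) against 3.56% and none lower against 3.67%. Neutrophils had S100a10 alone as higher against 15.4% and none lower against 5.23%, and nonclassical monocytes had S100a9 alone as lower against 3.12% with none higher against 2.97%. S100a6 alone was higher in alveolar macrophages, against 3.48%, and in B cells, against 5.54%. No member was lower there, against 1.79% and 1.81%. No member passed 2-fold in either direction in classical monocytes (background 4.74% higher, 3.67% lower), interstitial macrophages (5.71% and 3.66%), type 2 dendritic cells (6.06% and 3.24%) or T cells (4.96% and 1.55%). The member counts can be read against these shares only as a description, because 8 genes are few and a handful of cells carried several of the sums, as described for each gene below.

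**Figure D2:**
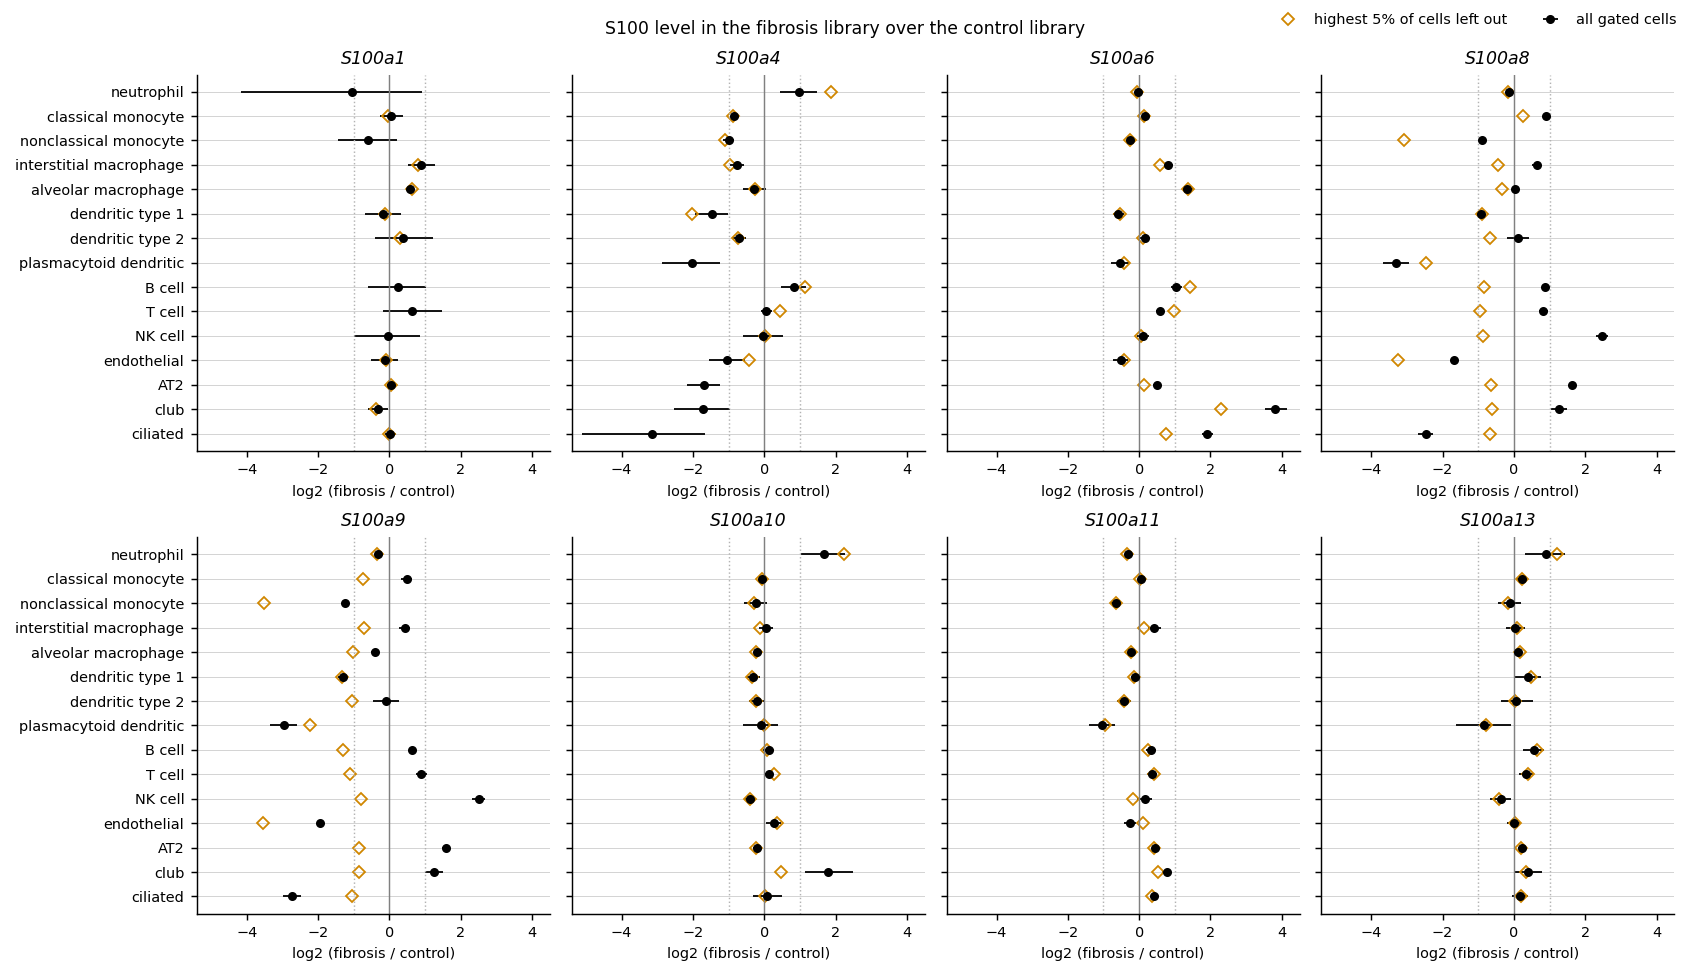
The log2 ratio of fibrosis over control in 15 cell classes, 1 panel per S100 gene. Black points with exact 95% counting intervals use all gated cells, orange diamonds leave out the 5% of cells with the most UMIs of the gene relative to their total, and dotted lines mark 2-fold. For S100a8 and S100a9 the diamonds leave the black points in many classes, with S100a8 in NK cells going from 2.47 to -0.86, while for S100a10 and S100a13 both mostly coincide.

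S100a8 and S100a9 encode the subunits of calprotectin, and both genes were neutrophil genes first. In neutrophils S100a8 reached 174804 CPM in control and 158143 in fibrosis (log2 -0.14). S100a9 reached 132179 and 106383 CPM (log2 -0.31). Together these genes made up 30.7% and 26.5% of all UMIs of the neutrophils. The median neutrophil carried 336 S100a8 UMIs in control and 433.5 in fibrosis, and every control neutrophil and 98.6% of fibrosis neutrophils had at least 1. The neutrophil gate held 80.8% of the S100a8 UMIs of the control library with 647 cells, and 44.4% of those of the fibrosis library with 72 cells. For S100a9 the shares were 81.6% and 45.0%. The lower total of both genes over the whole suspension stood beside a smaller share of gated neutrophils, 8.63% and 1.10% of kept cells, while the levels within neutrophils differed 1.11-fold for S100a8 and 1.24-fold for S100a9.

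The genes lie in the S100 cluster of chromosome 3 (GRCm38, gene coordinates from GENCODE M21), S100a8 at chr3:90668978-90670035 on the plus strand and S100a9 at chr3:90692632-90695721 on the minus strand, 22596 bases apart and pointing at each other. Since their levels moved together over classes, the 250 bases before the RefSeq start of each (GRCm38) are printed, 5′ to 3′ on the gene's own strand. Capitals mark the letters TATAAA (the TATA box) and TTNCNNAA (a loose form of the site bound by C/EBP factors, which drive myeloid genes), searched on both strands.
S100a8, chr3:90668821-90669070, plus strand: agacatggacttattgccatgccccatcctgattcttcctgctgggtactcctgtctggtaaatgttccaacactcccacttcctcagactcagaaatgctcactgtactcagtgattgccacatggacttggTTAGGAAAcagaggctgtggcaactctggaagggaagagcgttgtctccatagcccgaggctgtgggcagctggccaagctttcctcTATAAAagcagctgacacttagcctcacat
S100a9, chr3:90695722-90695971, minus strand: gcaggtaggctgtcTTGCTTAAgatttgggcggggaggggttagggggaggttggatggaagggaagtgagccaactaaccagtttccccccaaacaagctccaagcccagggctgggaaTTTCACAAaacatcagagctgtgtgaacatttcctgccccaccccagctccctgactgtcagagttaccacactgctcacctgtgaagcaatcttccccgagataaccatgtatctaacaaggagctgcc
The S100a8 window held TATAAA 30 bases before the start and 1 TTNCNNAA match on the opposite strand. The S100a9 window held no TATAAA and 2 TTNCNNAA matches on its own strand, 236 and 130 bases before the start. The matches did not overlap. Of 32851 RefSeq windows of this length, 12.4% held TATAAA on either strand, 36.85% held TTNCNNAA on either strand and 2.63% held TATAAA on their own strand within the last 50 bases, where the S100a8 match lies. The matches describe the windows only. Among the 7 members with a window, S100a4 also held TATAAA, 31 bases before its start, and no other member held either motif. CCAAT was also searched, and S100a6 alone had it.

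Outside neutrophils, how many cells carried the sums of S100a8 and S100a9 differed between classes and libraries. In NK cells S100a8 was at 534 CPM in control and 2962 in fibrosis (log2 2.47, interval 2.30 to 2.65). Of the 1159 fibrosis UMIs behind that value, 3 of 141 cells held 50%, against 28 of 304 in control. The share of NK cells with an S100a8 UMI went the opposite way, from 31.9% to 17.7% after thinning each cell to 1000 UMIs, and from 57.6% to 38.3% without thinning. In AT2 cells S100a8 was at 257 and 801 CPM (log2 1.64), and 15 of 1704 fibrosis cells held 50% of it, against 164 of 991 in control, while the thinned share was 19.8% and 15.7%. In endothelial cells it was at 6411 and 2010 CPM (log2 -1.67), with 50% of it in 8 of 283 and 3 of 194 cells. In nonclassical monocytes it was at 7162 and 3835 CPM, with 50% of it in 13 of 314 and 2 of 202 cells. In neutrophils, by contrast, 50% of the S100a8 UMIs took 225 of 647 and 23 of 72 cells.

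**Figure D3:**
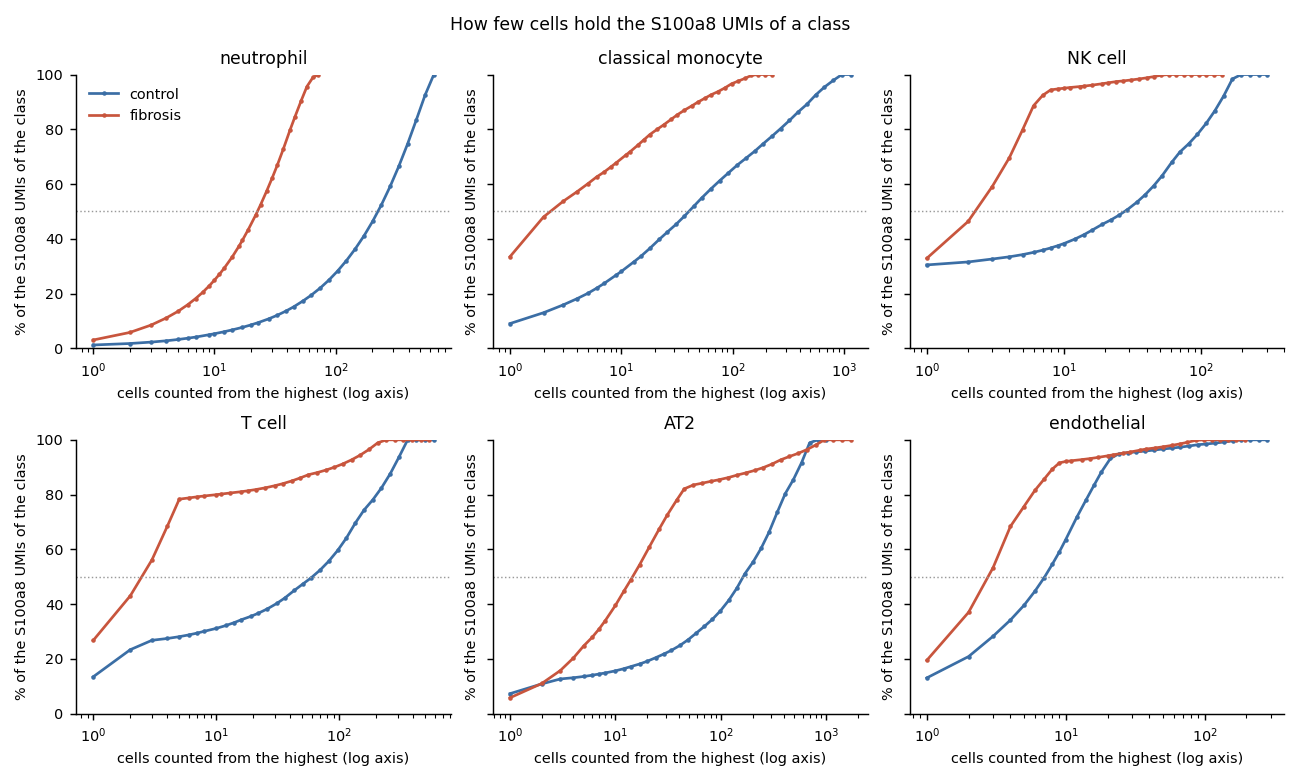
Cumulative share of the S100a8 UMIs of a class (vertical axis, percent) against the number of cells counted from the highest (log axis), for 6 classes and both libraries, with a dotted line at 50%. In neutrophils the curves climb over the whole class, whereas in NK cells of the fibrosis library 3 cells reach 50%.

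Part of these sums lay in cells with neutrophil genes other than S100. Outside the neutrophil gate, 1069 kept control cells (14.3%) and 615 fibrosis cells (9.39%) had at least 2 markers of the neutrophil list detected. They held 16.2% of the S100a8 UMIs in control and 46.6% in fibrosis. All other cells together, 5778 and 5860, held 3.02% and 8.97%. The marked cells included many gated classical monocytes, of which only 745 of 1152 in control and 168 of 225 in fibrosis were unmarked. Mmp8, a marker on the list, was not confined to neutrophils. Classical monocytes held 1610 Mmp8 UMIs in control against 1235 in neutrophils, and 248 against 176 in fibrosis. For Retnlg, also a marker, the control values were 241 against 34693. With the marked cells left out of the other classes, S100a8 was lower in fibrosis in all 15 classes (median log2 -0.69). S100a9 was likewise lower in all 15 (median log2 -0.96). Neutrophils were left whole, so their log2 ratios of -0.14 and -0.31 were unchanged. As gated, 17 of 2113 genes were lower in every class, and no such count was made for this setting or the next. Without the marked cells, S100a8 in NK cells stood at 369 CPM in control and 183 in fibrosis. In AT2 cells it stood at 233 and 140, and in T cells at 315 and 167. Leaving out instead the 5% of cells with the most UMIs of the gene gave S100a8 lower in 14 of 15 classes, classical monocytes being the exception at log2 0.24, and S100a9 lower in all 15. A list of 16 other neutrophil transcripts, among them Retnlg, Csf3r, Cxcr2 and Mmp9, was followed in the same classes. Retnlg, Csf3r, Cxcr2, Mmp9, Il1r2, G0s2 and Mmp8 also belong to the markers that defined the marked cells. Not all 16 were confined to neutrophils. In fibrosis the neutrophil gate held 55.7% of Retnlg UMIs, but 12.3% of G0s2 and 9.2% of Wfdc21. Fibrosis alveolar macrophages held 9359 Wfdc21 UMIs, against 1138 in neutrophils. The median log2 ratio of the list had the sign of the S100a8 ratio in 11 of 14 classes outside neutrophils. It was 1.77 in NK cells, 1.41 in AT2 cells, -1.82 in endothelial cells and -2.0 in plasmacytoid dendritic cells. Among the matching classes it was near 0 in type 1 dendritic cells (-0.034), classical monocytes (0.10) and T cells (0.12). No such count was made for other lists, so this one is a description only. Of the 148 gene and class pairs of the list, 40 were at least 2-fold higher (27.0%) and 29 lower (19.6%), beside 5.13% and 2.67% of all gene and class pairs. The extremes, each with 1 library at 1 to 3 UMIs, were Ltf in ciliated cells (2 and 239 UMIs, log2 6.70, interval 4.83 to 9.75), Ngp in nonclassical monocytes (3 and 127 UMIs, 6.32, 4.74 to 8.62), Retnlg in plasmacytoid dendritic cells (119 and 2 UMIs, -5.34, -8.40 to -3.46) and Wfdc21 there (29 and 1 UMIs, -4.30, -9.66 to -1.71). What the marked cells are was not tested.

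B cells served as a class that should lack S100a8. After thinning, 38.0% of control B cells and 20.2% of fibrosis B cells had an S100a8 UMI, at median depths of 1853 and 2580.5 UMIs. The NK, T and AT2 shares were at or below these values in both libraries, so they did not exceed those of B cells. Where the S100a8 UMIs of these classes and of the B cells came from was not tested. In alveolar macrophages the shares were 34.9% and 29.6%, and in classical monocytes 35.2% and 35.6%, so both lay above the B cell share in the fibrosis library, while in control they were at or below it and their intervals overlapped that of the B cells. Their median depths were 4871 and 5246.5 UMIs for the macrophages and 5282 and 4435 for the monocytes.

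The ratio of the paired genes was highest in classical monocytes. Neutrophils held 1.32 S100a8 UMIs for each S100a9 UMI in control (interval 1.31 to 1.33) and 1.49 in fibrosis (1.46 to 1.51). Classical monocytes held 2.78 (2.64 to 2.93) and 3.73 (3.36 to 4.14), outside the neutrophil interval in both libraries. Without the cells that carried neutrophil markers they held 2.76 and 4.27. In alveolar macrophages the ratio was 1.42 in control and 1.94 in fibrosis (1.82 to 2.07), and without the marked cells 1.44 and 2.35. B cells were at 1.3 and 1.54, AT2 cells at 1.36 and 1.42 and NK cells at 1.26 and 1.23. Nonclassical monocytes held 1.38 (1.34 to 1.43) and 1.74 (1.63 to 1.86), also above the neutrophil interval of their library. Without the marked cells they held 1.22 (0.997 to 1.49) and 2.0 (1.43 to 2.82), intervals that include the neutrophil ratios. Below the neutrophil interval lay endothelial cells in control at 1.23, and in fibrosis NK cells at 1.23, T cells at 1.26, club cells at 1.25 and plasmacytoid dendritic cells at 1.0. Without the marked cells the interval of each of these classes included the neutrophil ratio of its library, with NK cells at 1.33 (0.90 to 1.96) and club cells at 1.70 (1.31 to 2.22).

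**Figure D4:**
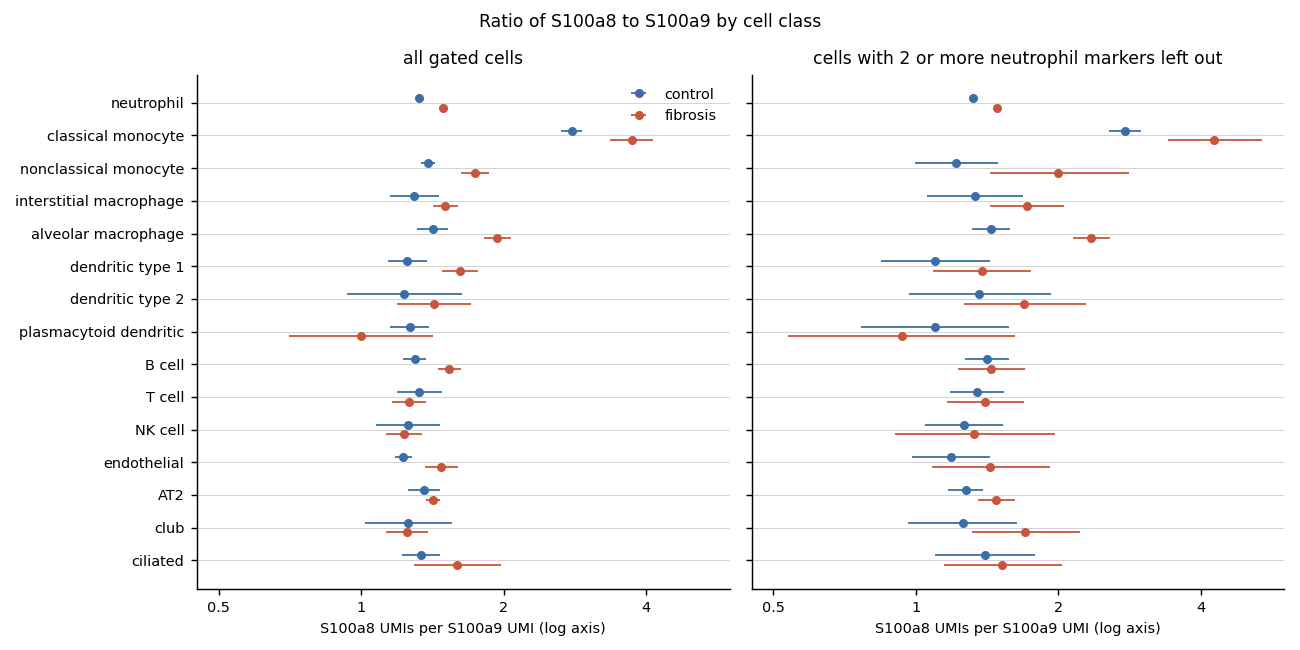
S100a8 UMIs per S100a9 UMI (log axis) by cell class, for all gated cells (left) and without cells that carry neutrophil markers (right), with blue for control, red for fibrosis and bars for exact 95% intervals. Classical monocytes lie at 2.78 and 3.73, to the right of neutrophils at 1.32 and 1.49.

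S100a4 binds non-muscle myosin and is known for cell motility. It lies at chr3:90603771-90606045 and overlaps the gene model Gm42674 on the same strand, so reads shared by both are uncertain. It was highest in classical monocytes, at 2421 CPM in control and 1350 in fibrosis (log2 -0.84, interval -0.92 to -0.76). The median classical monocyte carried 12 S100a4 UMIs in control and 6 in fibrosis. After thinning, 89.4% of control and 69.8% of fibrosis classical monocytes had 1, with intervals of 87.5 to 91.1% and 63.3 to 75.7% that did not overlap. The monocytes were deeper in control, at a median of 5282 UMIs against 4435, which thinning equalises. Nonclassical monocytes came next in control with 1527 and 765 CPM (log2 -1.0), and type 2 dendritic cells with 1347 and 827 CPM (log2 -0.70). The intervals of these neighbours overlapped in both libraries. Interstitial macrophages were at 485 and 285 CPM (log2 -0.77), but classes drawn from clusters gave log2 -0.11 there.

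S100a4 was lower in fibrosis, with the interval below 0, in 10 of 15 classes. Its median log2 ratio over the 15 classes was -0.84, at the 0.473th percentile of the same median over 2113 genes counted in every class. Only 17 of those genes were lower in every class, and S100a4 was not one of them. Of its 6 classes at 2-fold lower, AT2, type 1 dendritic and plasmacytoid dendritic cells stayed past 2-fold without the cells carrying neutrophil markers, at log2 -1.55, -1.32 and -1.65. Club cells at -0.70 and endothelial cells at -0.45 did not, and ciliated cells had too few UMIs left for a value. Without the highest 5% of cells only type 1 dendritic cells (-2.03) and endothelial cells (-0.43) of these 6 had enough UMIs left, and the median over the 11 classes with a value was -0.43. T cells were level at 360 and 375 CPM, and NK cells at 112 and 110. B cells held 66.1 and 117 CPM (log2 0.83), although 7 control and 10 fibrosis cells held 50% of these UMIs and clusters gave log2 -0.93. In neutrophils the log2 ratio was 0.98, with 50% of the fibrosis UMIs in 3 of 72 cells. It was 1.86 without the highest 5% of cells and -0.19 in clusters. Classes with little S100a4, such as AT2 at 18.6 and 5.71 CPM with 1.7% and 0.4% of thinned cells positive, counted as 2-fold lower from very few UMIs. Classical monocytes held 58.3% of all S100a4 UMIs in control and 20.2% in fibrosis, and the part of that in the low classes was not tested.

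Although S100a4 is named for fibroblasts, the fibroblast gate was far below the monocytes. Fibroblasts stood at 195 CPM in control from 36 UMIs in 45 cells and at 47.3 CPM in fibrosis from 12 UMIs in 49 cells. Mesothelial cells stood at 87.8 and 230 CPM, and AT1 cells at 158 and 56.5. In both libraries these 3 structural classes were below type 2 dendritic cells and both kinds of monocyte.

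S100a6, calcyclin, binds Cacybp and several annexins. It lies at chr3:90612882-90624181, 6836 bases from S100a4. It was broad and highest in some barrier and some myeloid classes, but not in barrier cells as a whole. The lowest class was club cells in control, at 101 CPM, and AT2 cells in fibrosis, at 187 CPM. In control, neutrophils were highest at 11066 CPM, followed by mesothelial cells at 8516, AT1 cells at 6892 and classical monocytes at 3880. In fibrosis, mesothelial cells were first at 12630 CPM, followed by neutrophils at 10856, AT1 cells at 6556 and classical monocytes at 4333. No neighbouring intervals among these 4 classes overlapped in either library. Every mesothelial cell and 97.1% and 97.4% of AT1 cells had an S100a6 UMI after thinning, whereas AT2 cells, the other alveolar epithelial type, had 8.1% and 9.2%.

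Alveolar macrophages held little S100a6 and more of it in fibrosis. They went from 124 to 315 CPM (log2 1.34, interval 1.19 to 1.5), and the thinned share from 10.1% to 17.2%, with intervals of 8.0 to 12.7% and 14.9 to 19.8%. The ratio was 1.38 without the highest 5% of cells and 2.01 in clusters. 50% of the UMIs lay in 27 of 680 control and 44 of 974 fibrosis cells, so a minority of the macrophages carried the gene in both. Interstitial macrophages went from 805 to 1420 CPM (log2 0.82) and T cells from 698 to 1044 (log2 0.58). B cells went from 287 to 590 CPM (log2 1.04), with the thinned share from 14.8% to 23.0%, and 24 of 923 control and 19 of 426 fibrosis cells held 50%. Clusters gave 0.79 there, under 2-fold. Type 1 dendritic cells were lower, at 902 and 602 CPM (log2 -0.58), as was the thinned share, 53.3% and 35.2%. The 2 largest ratios were in airway cells and were smaller without the highest cells. In club cells S100a6 went from 101 to 1427 CPM (log2 3.82), and 1 of 91 fibrosis cells held 69.7% of it. Without the highest 5% of cells club cells held 80.1 and 399 CPM (log2 2.31), and the log2 ratio was 3.28 without cells carrying neutrophil markers, so both stayed past 2-fold. In ciliated cells it went from 343 to 1283 CPM, with 48.3% in 1 of 108 fibrosis cells, and without the highest 5% of cells the log2 ratio was 0.77 in place of 1.90, against 2.63 without cells carrying neutrophil markers.

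S100a10 and S100a11 are annexin partners: S100a10 forms a tetramer with annexin A2 at the membrane, and S100a11 binds annexin A1. They are neighbours, S100a11 at chr3:93520488-93526287 and S100a10 at chr3:93555080-93564643, and 2824766 bases separate S100a9 from S100a11. S100a10 was highest in mesothelial cells, at 1731 CPM in control and 2258 in fibrosis. NK cells followed with 1525 and 1158 CPM (log2 -0.40, interval -0.56 to -0.24), and their thinned share went from 79.6% to 63.8%. Alveolar macrophages held 1079 and 934 CPM, classical monocytes 1069 and 1022, and T cells 881 and 964. It was scarce in club cells (25.3 and 87.0 CPM), ciliated cells (70.6 and 75.2) and neutrophils (57.2 and 182). The 2-fold counts of S100a10 in club cells and neutrophils came from those low levels. In club cells 1 fibrosis cell held 60.4% of the UMIs, and the log2 ratio of 1.78 was 0.47 without the highest 5% of cells, 0.73 without cells carrying neutrophil markers and -0.40 in clusters. In neutrophils 3 fibrosis cells held 50%, and the log2 ratio of 1.67 was 2.23 without the highest 5% of cells and 1.45 in clusters. In the other 13 classes with ratios, S100a10 differed by at most 0.40 on the log2 scale. Fibroblasts, given by level, held 1009 and 678 CPM.

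S100a11 was the most widely detected member, with a UMI in 83.3% of control and 84.7% of fibrosis cells. Neutrophils held 11758 and 9398 CPM (log2 -0.32), mesothelial cells 2358 and 2748, AT1 cells 2229 and 2612, classical monocytes 1889 and 1966 and alveolar macrophages 1785 and 1523. Epithelial classes were higher in fibrosis without reaching 2-fold. AT2 cells went from 724 to 987 CPM (log2 0.45, interval 0.39 to 0.50), with the thinned share from 48.5% to 55.3%. Ciliated cells went from 1653 to 2197 CPM (log2 0.41) and club cells from 873 to 1486 (log2 0.77). These 3 ratios were 0.41, 0.36 and 0.53 without the highest 5% of cells, and club cells reached 1.01 in clusters. The 2-fold lower count in plasmacytoid dendritic cells (967 and 469 CPM, log2 -1.04) ended at -0.43 without cells carrying neutrophil markers and at -0.95 without the highest 5% of cells, while clusters gave -1.38. Unlike neutrophils, where S100a6 and S100a11 were both abundant and S100a10 was not, NK cells held more S100a10 than S100a11 UMIs, at 675 and 754 CPM of S100a11. A processed pseudogene, S100a11-ps, lies on chromosome 12, and reads shared with it are uncertain.

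Of 164 gene and class pairs of the annexins and other intracellular partners, 8 were 2-fold higher (4.88%) and 1 lower (0.61%). Over all genes in the same 15 classes, 5.13% of pairs were higher and 2.67% lower, and the other lists are given against these shares. Among the higher pairs were Anxa1 in club cells (65.9 and 193 CPM, log2 1.55) and Anxa11 in club cells (22.0 and 51.9 CPM, log2 1.24). Ahnak and Anxa5 were higher in neutrophils (log2 1.38 and 1.37) from 22 and 18 fibrosis UMIs. Anxa2, the partner of S100a10, was at 1355 and 1127 CPM in alveolar macrophages (log2 -0.27) and at 854 and 550 CPM in NK cells (log2 -0.64), where S100a10 was also lower. In neutrophils Anxa2 was at 1129 and 1121 CPM beside the scarce S100a10.

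S100a1 and S100a13 share a divergent arrangement, S100a1 at chr3:90511034-90514392 on the minus strand and S100a13 at chr3:90514435-90524581 on the plus strand. S100a1 is best known from heart muscle, where it acts on calcium handling, and S100a13 takes part in the release of Fgf1 and Il1a, proteins without a signal peptide. The 42 bases between the gene models are shown because 2 members start from them; they held neither motif.
Between S100a1 and S100a13, chr3:90514393-90514434, plus strand: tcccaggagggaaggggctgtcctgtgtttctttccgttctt
The levels of these neighbours over 30 class and library profiles correlated only weakly (Pearson's r 0.33 on log2 values, a description). S100a1 was highest in alveolar macrophages, mesothelial cells and ciliated cells, and S100a13 in AT1 cells and endothelial cells, followed by NK cells in control and alveolar macrophages in fibrosis.

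Alveolar macrophages held 603 CPM of S100a1 in control and 902 in fibrosis (log2 0.58, interval 0.51 to 0.66). The thinned share went from 36.6% (33.0 to 40.4%) to 46.3% (43.1 to 49.5%), and the median cell from 2 to 3 UMIs. They held 37.1% of the S100a1 UMIs of the control library and 51.7% of those of the fibrosis library. Interstitial macrophages went from 106 to 198 CPM (log2 0.90), although clusters gave 0.04 there. Ciliated cells were level at 572 and 584 CPM, mesothelial cells at 640 and 690, and AT2 cells at 171 and 175. S100a1 was nearly absent from lymphocytes, with 13.1 and 20.3 CPM in T cells and 16.6 and 19.5 in B cells.

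S100a13 varied least. Its lowest and highest classes in control were club cells at 96.6 CPM and AT1 cells at 584. Endothelial cells held 540 and 537 CPM, NK cells 501 and 386 (log2 -0.37), and alveolar macrophages 374 and 407. No class passed 2-fold, and the median log2 ratio over 15 classes was 0.18. Neutrophils, at log2 0.89 as gated, passed it without the highest 5% of cells (1.22) and in clusters (1.24), and plasmacytoid dendritic cells in clusters (-1.04). Of its release partners, Il1a was at 11.9 and 15.9 CPM in alveolar macrophages (log2 0.42) and Fgf1 at 79.9 and 43.6 CPM in endothelial cells (log2 -0.87), and none of the 6 countable pairs passed 2-fold.

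T cells with CD8 genes, 256 of 586 in control and 215 of 539 in fibrosis, held less S100a4 than the other T cells, at 105 and 602 CPM in control and 98.8 and 576 in fibrosis (log2 -2.52 and -2.54). S100a6 was at 338 and 1041 CPM in control and 374 and 1532 in fibrosis. S100a11 was at 253 and 597 CPM in control and 319 and 718 in fibrosis. S100a10, the most abundant of these in the CD8 cells, was at 600 and 1147 CPM in control and 699 and 1157 in fibrosis. All 4 were lower in T cells with CD8 genes in each library, with the counting interval of the ratio clear of 0. The same held for S100a8 (log2 -0.34 in control and -1.63 in fibrosis), S100a9 (-0.31 and -1.54) and S100a13 (-0.69 and -0.51). For S100a1 both intervals spanned 0. Of all T cells, 20 of 586 in control and 24 of 539 in fibrosis held at least as many S100a4 UMIs as the rest. The part of such few cells in these contrasts was not tested.

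Among alveolar macrophages, S100a1 was higher in cells with a UMI of Mmp12, Spp1, Gpnmb, Arg1 or Mmp14, genes of macrophages in scarring lung. It was at 639 CPM with and 422 without in control (log2 0.60, interval 0.40 to 0.80) and at 936 and 475 in fibrosis (log2 0.98, interval 0.77 to 1.19). With at least 2 of these genes it was at 719 and 516 CPM in control and at 1091 and 602 in fibrosis. Cells with such a gene were 529 of 680 control and 877 of 974 fibrosis alveolar macrophages and were deeper, with medians of 5277 against 3579 UMIs in control and 5385 against 3994 in fibrosis. The part of depth was not tested. S100a10, S100a11 and S100a13 differed by at most 0.14 on the log2 scale between cells with and without 1 such gene. S100a6 was at log2 0.35 in control and 0.01 in fibrosis, both intervals spanning 0. With at least 2 of the genes S100a6 was at 0.48 (0.20 to 0.76) in control and 0.51 (0.36 to 0.66) in fibrosis, so the rise was not particular to S100a1. S100a4 was then at 0.83 (0.34 to 1.33) in control and 0.11 (-0.32 to 0.55) in fibrosis. In endothelial cells S100a1 was higher with Vwf than without in both libraries (243 and 135 CPM in control, 196 and 101 in fibrosis), whereas S100a6 was higher with Vwf in control (930 and 483 CPM) and lower in fibrosis (357 and 561 CPM). Of the endothelial S100a6 UMIs, 11 of 283 control and 11 of 194 fibrosis cells held 50%, and without cells carrying neutrophil markers endothelial cells held 250 and 322 CPM (log2 0.36 in place of -0.51). AT2 cells with at least 2 of Lcn2, Il33, Slc26a4 and Lrg1, genes raised in injured epithelium, numbered 721 of 991 and 1446 of 1704 and held less S100a6 than the other AT2 cells, at 86 against 293 CPM in control and 146 against 493 in fibrosis. Of the AT2 S100a6 UMIs, 26 of 991 control and 35 of 1704 fibrosis cells held 50%. The 57 fibrosis AT2 cells with none of these genes held 429 of the 1931 UMIs, at 1735 CPM. The part of such few cells in the contrast was not tested.

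The receptors of released S100 proteins were measured in the same cells. Of 100 gene and class pairs, 11 were 2-fold higher (11.0%) and 4 lower (4.0%), beside 5.13% and 2.67% over all genes. Ager is a marker of the AT1 gate and was among the leading genes of AT1 cells, for which its level is not given here. In AT2 cells Ager was at 963 and 1147 CPM (log2 0.25), and in club cells it went from 97.7 to 299 CPM (log2 1.61). Tlr4 was at 46.1 and 48.7 CPM in alveolar macrophages (log2 0.08) and at 8.10 and 21.7 in classical monocytes (log2 1.42), the latter from 50 and 22 UMIs. Alcam in endothelial cells (log2 2.45) and Cd36 in plasmacytoid dendritic cells (log2 2.33) gave the largest ratios from at most 32 UMIs per library, as did Cd14 in type 2 dendritic cells (log2 1.88) from 2 and 18, where the interval spanned 0. Of the NADPH oxidase genes, whose enzyme calprotectin supplies with arachidonic acid, Cybb was at log2 2.35 in NK cells from 8 and 23 UMIs, Ncf1 reached log2 1.05 in nonclassical monocytes and Rac2 -1.22 in endothelial cells. Of the C/EBP and PU.1 factor pairs, 4 of 41 were higher (9.76%) and 2 lower (4.88%), beside the same 5.13% and 2.67%, with Cebpb in interstitial macrophages at 66.5 and 158 CPM (log2 1.25) and Spi1 in NK cells at log2 2.57 from 6 and 20 UMIs. Cebpe in neutrophils, from 26 and 1 UMIs (log2 -1.85), and Cebpa there (log2 0.85) had intervals spanning 0.

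The genes outside the family with the most similar profile over the 30 class and library profiles differed for each member. These correlations of log2 levels are descriptions over profiles that share 2 libraries, picked from 11423 candidates. S100a8 resembled Cxcr2 (r 0.95), Retnlg (0.95) and Gm17619 (0.93), and S100a9 resembled Retnlg (0.96), Cxcr2 (0.96) and Stfa2l1 (0.94). Cxcr2 and Retnlg are markers of the neutrophil gate that set these profiles, so their likeness was partly fixed by the gating. S100a4 resembled Ms4a6c (0.88), Ms4a6b (0.85) and Susd3 (0.82). S100a6 had no gene above 0.80 other than St3gal4 and Slc2a6, with Ifitm6 next. S100a10 resembled Nme1 (0.88), S100a11 Ikbkap (0.84) with Anxa1 at 0.81, S100a1 Coprs (0.91) and S100a13 Ndufa8 (0.87). Between members, S100a8 and S100a9 correlated at 0.99, S100a8 with S100a11 at 0.62 and with S100a6 at 0.61, S100a10 with S100a13 at 0.57, and S100a1 with S100a4 at -0.49.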

How the data were processed

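The authors deposited, for each library, whole-number counts of UMIs per gene and cell, without normalisation. Per the submitters' processing notes, bcl2fastq and Cell Ranger 1.3 were used with the mm10 build; the annotation is not given in the sources used here. Cells with at least 200 genes and at most 10% mitochondrial UMIs were kept, and the cells with the highest simulated-doublet scores were removed by 1 rule in both libraries, 548 control (6.62%) and 412 fibrosis cells (5.74%). A cell entered a class when its mean capped log2 excess over the marker list was at least 0.5 and led the next class by 0.2, with at least 3 markers detected. This scoring rule was set after the data were seen. 5 symbols of the marker lists had no match, and 1466 cells lay within 0.1 of a gate limit. UMIs were summed per class and library (scanpy 1.11.5, scipy 1.17.1). Ratios carry exact conditional binomial intervals; 0.5 UMI was added to each sum for the 2-fold counts and for the values in the closing section. Shares carry exact Clopper-Pearson intervals, and a count of 0 allows 3 counts. Named genes were all members, the 3 most similar genes of each and at most 4 genes per partner list with the largest ratio; other genes, such as Anxa2 and Tlr4, were named after their values were seen. The members and lists were chosen with earlier results of these data known. The interval and call routines were tested on simulated data. Protein sequences and the S100a10 promoter are not used here, and 1 further split of T cells and a count of oxidase genes are not reported here. Alternatives are in the closing section.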

Additional observations from a re-analysis of the deposited data

Results flagged for a closer look

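S100a8 and S100a9 were higher in some classes and lower in others under the same contrast, and the difference between classes was not tested. For S100a8 the extremes were a log2 ratio of 2.47 in NK cells and -3.30 in plasmacytoid dendritic cells. For S100a9 they were 2.50 and -2.96 in the same classes. Without cells carrying neutrophil markers, S100a8 stood at -1.01 in NK cells and -0.95 in plasmacytoid dendritic cells, and S100a9 at -1.07 and -0.72.

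Of 24 gene and class pairs of S100 genes outside the 8 members, 6 were 2-fold higher and 1 lower. Over all genes, 5.13% of pairs were higher and 2.67% lower. The 24 pairs are few, so their count is a description only. The lower pair was S100a16 in alveolar macrophages (20 and 12 UMIs, log2 -1.43). S100a14 in club cells went from 4 to 72 UMIs (log2 3.41). S100b in ciliated cells went from 27 to 99 UMIs (log2 1.67). S100g, which was mainly an AT2 transcript with 94.6% and 95.2% of its UMIs there, had log2 ratios of 2.41 in club cells, 1.90 in endothelial cells and 1.26 in nonclassical monocytes. In AT2 cells themselves S100g was at 2023 and 2397 CPM. In club cells 11.0% of all genes counted as higher. How few cells carried the S100a14 and S100g UMIs there was not tested.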

How the results depend on the processing

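No paired analysis was possible because each group is 1 library. As reported, 12 pairs were 2-fold higher (10.1%), 15 lower (12.6%) and 28 at least 2-fold from the other classes. Over all genes 5.13% of pairs were higher and 2.67% lower. No share over all genes is given here for the 28, so that count is a description only. Over 14 planned settings and 2 chosen after seeing the data (cells with neutrophil markers left out; the highest 5% of cells left out), 149 of 195 values of the leading results stayed within counting error or, for counts, 1.5-fold, and so within counting error did 1626 of 1995 member and class values; 353 moved and 16 turned sign.

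With cells carrying neutrophil markers left out, pairs higher fell to 5 and pairs apart from the other classes to 8. S100a8 turned to -0.53 in club, -0.73 in AT2 and -1.01 in NK cells, and S100a9 to -0.96, -0.95 and -1.07. Neutrophils then held 96.4% and 83.2% of S100a8 UMIs, and the S100a8 to S100a9 ratio of fibrosis classical monocytes was 4.27. With the highest 5% of cells left out, these counts were 7 and 17, S100a8 turned to -0.61, -0.63 and -0.86, S100a9 to -0.85, -0.85 and -0.80, and neutrophil S100a8 was 169045 and 149557 CPM. Without doublet removal the counts were 5 and 18, S100a8 and S100a9 turned to -0.71 and -0.81 in AT2 cells, neutrophil S100a8 was 156846 and 146834 CPM with 72.7% and 42.8% of its UMIs there and the control monocyte ratio was 2.33. The first of these settings removes the cells with neutrophil markers by construction, and the second removes the cells highest in the gene itself. For all others the cause was not tested.

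With clusters, S100a10 in club cells turned to -0.40, neutrophil S100a8 was 181277 and 178164 CPM with 82.5% and 42.6% of its UMIs, the fibrosis monocyte ratio was 5.26, and the fibrosis share of macrophages with S100a1 42.5%, where S100a1 with over without Mmp12-group genes was log2 1.34. With the mean over cells, S100a10 in club cells was -0.074 and neutrophil S100a8 176372 and 171094 CPM. Without mitochondrial and ribosomal genes it was 188982 and 182751 CPM. Without cells under 2000 UMIs it was 173168 and 155340 CPM, with 72.6% and 40.7% in neutrophils. With 1 more marker it was 154092 CPM in fibrosis, with 79.7% and 45.2%. Without shared barcodes it was 155511 CPM and 43.6% in fibrosis, and without the mitochondrial limit 173226 CPM in control and 45.3% in fibrosis. Without thinning, S100a4 was found in 99.7% and 98.2% of classical monocytes and S100a1 in 81.5% and 88.4% of alveolar macrophages; thinned to 2000 UMIs these were 98.7%, 91.5%, 56.8% and 67.7%. A minimum of 50 UMIs and subtracting either median left the counts within the limit.

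Depth limits members under 20 UMIs in a class, where no 2-fold count was made.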
